A study of Rattus norvegicus with 8 samples.

Results

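Foxa1, Foxa2, Foxa3, Noto, T, Gsc and Hhex are transcription factor genes best known from the embryonic endoderm, node and notochord. Their messenger RNA was followed here through 3 stages of the rat male germ line. The 7 genes were found by their symbols among the 16764 symbols of a table of raw read counts, and they were selected on results of these same libraries. Every level and fold change given for them is therefore a description, with no p-value.

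All RNA came from the Brown Norway strain, with 2 libraries in each of 3 groups. Undifferentiated spermatogonia (USg) were a spermatogonial stem cell line expanded in SG Medium, which per the labels of the immunoprecipitation samples contains GDNF and FGF, and were at 0 h of SD Medium. Differentiating spermatogonia (DSg) were the same line after 120 h in SD Medium, made with neuregulin-1 and all-trans-retinoic acid. They were harvested 7 days after plating on laminin, whereas the protocol places the USg harvest before plating, so that medium, laminin and days in culture cannot be told apart. The sample titles of both groups carry T120, which leaves the USg time point unsettled. The spermatocyte-enriched group (Spc) held primary testis germ cells. They were what remained after plates of plastic, collagen-I and laminin had each removed adherent cells, and had spent 2.5 days in DMEM:Ham's F12 with 10% FBS. Spc thus differed from the line in source, selection and medium as well as in stage. The labels speak of replicate cultures of the line but name no animals, so the spread between 2 libraries may be technical. Both anti-Foxa2 chromatin immunoprecipitation samples of USg were not analysed here.

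The Foxa proteins (once named hepatocyte nuclear factor 3) are winged-helix pioneer factors, able to bind their sites in compacted chromatin, and in mouse embryos they set up the endoderm, the node, the notochord and the floor plate. In the mouse node, the homeobox factor Noto acts downstream of Foxa2 and of T (brachyury, the founding T-box factor) in forming the ciliated notochordal plate. Gsc marks the organizer, and Hhex the anterior endoderm and the liver and blood primordia. In mouse spermatogonial cultures, T has been placed downstream of Etv5, a factor switched on by GDNF.

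The promoters of Foxa2, Noto and Foxa3 are shown because these 3 genes were high together in USg and low together in DSg and Spc. Each window runs from 250 bases before to 50 bases after the transcription start in RefSeq assembly GRCr8, is written 5′ to 3′ on the gene's strand, and has forkhead core words in capitals. Foxa2 lies at chr3:155927459-155927758 on the minus strand, Noto at chr4:119518413-119518712 on the plus strand, and Foxa3 at chr1:87799436-87799735 on the minus strand.
Foxa2: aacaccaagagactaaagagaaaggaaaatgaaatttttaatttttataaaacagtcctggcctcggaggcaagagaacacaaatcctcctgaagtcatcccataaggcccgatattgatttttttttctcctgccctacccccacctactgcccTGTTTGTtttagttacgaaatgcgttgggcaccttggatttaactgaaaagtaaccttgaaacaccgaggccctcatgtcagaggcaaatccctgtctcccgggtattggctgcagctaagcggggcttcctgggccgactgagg
Noto: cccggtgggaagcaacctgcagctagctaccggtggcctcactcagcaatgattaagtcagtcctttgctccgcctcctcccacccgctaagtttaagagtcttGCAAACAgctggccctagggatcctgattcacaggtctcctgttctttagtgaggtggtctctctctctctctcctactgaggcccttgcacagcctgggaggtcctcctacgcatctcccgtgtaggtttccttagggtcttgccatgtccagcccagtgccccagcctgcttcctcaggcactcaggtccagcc
Foxa3: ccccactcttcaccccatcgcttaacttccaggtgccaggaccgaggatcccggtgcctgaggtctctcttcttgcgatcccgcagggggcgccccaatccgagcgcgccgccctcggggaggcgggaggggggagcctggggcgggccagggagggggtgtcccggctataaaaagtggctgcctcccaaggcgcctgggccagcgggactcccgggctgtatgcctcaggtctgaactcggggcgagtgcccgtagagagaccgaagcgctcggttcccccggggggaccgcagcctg

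The forkhead core searched on both strands was TNTTTNN, in which the first N was A or G, the next A or G and the last C or T, and no window held more than 1 match. The Foxa2 window held TGTTTGT at position -95 from the start, and the Noto window held GCAAACA, the other strand of TGTTTGC, at position -146. The Foxa3 window, the richest of the 3 in G and C at 70.3%, held no such word. Of the other windows available, that of Gsc held TGTTTGT at -223 and that of Hhex held GCAAATA at -51. Thus 4 of the 5 windows held a word, which 28.6% of all 33469 RefSeq promoters of this length also did. The T half-site AGGTGTGA, searched on both strands, was in none of the 5 windows and in 1.1% of all promoters. A match is a description of letters and not a bound site. Foxa1 and T had no window in the table.

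Libraries held between 2657291 and 5697165 counts. Levels are CPM, each count as a share of the library's total on the usual CPM scale, scaled by TMM factors, and are compared across libraries within a gene only, since the table holds no gene lengths. The summed markers of each label were highest in its own group, although some single genes were not. Undifferentiated markers (7 of 8 in the table, among them Gfra1 and Ret) summed to 1594 and 1816 CPM in USg, 293 and 296 CPM in DSg and 202 and 182 CPM in Spc. Differentiating markers (5 genes, among them Kit) summed to 1000 and 995 CPM in DSg against 219 and 332 CPM in USg, and 7 spermatocyte markers to 7172 and 7720 CPM in Spc against 593 to 1011 CPM in the line. Id4, in the undifferentiated list, was highest in Spc (49.0 and 47.4 CPM in USg, 19.8 and 13.2 CPM in DSg, 140 and 118 CPM in Spc). In the differentiating list Dmrtb1 was highest in Spc and Sohlh1 in USg 2, and Kit, Sohlh2 and Cyp26a1 were highest in DSg. Endothelial markers (Pecam1, Kdr and Cdh5) were higher in USg, at 170 and 100.2 CPM, than in DSg, at 45.3 and 46.3 CPM, with Cdh5 at 0 in USg 1 and 1.07 CPM in USg 2, and their part in the levels below was not tested. Libraries also stood apart from their replicates. The share of counts in ribosomal RNA genes was 7.81% in USg 1, 12.4% in DSg 1 and at most 0.734% elsewhere. The 1045 odorant receptor genes, whose main site of use is the olfactory epithelium, summed to 1367 CPM in DSg 2 against 134 to 306 CPM in the other 5 libraries.

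The main pattern, seen in Foxa2, Foxa3, Noto and T, was an abundance in USg that was not found in the other groups. These genes had both DSg libraries below both USg libraries, Foxa1 had both above, and Gsc and Hhex overlapped. Of all 12210 genes tested, 21.1% had both DSg libraries below both USg libraries and 21.2% had both above, and since these values helped to choose the genes nothing is read from the count. In Spc, 6 of the 7 genes had both libraries below both of USg (35.3% of all genes below and 37.1% above), and Foxa1 overlapped. Against DSg, 5 of the 7 had both Spc libraries below (34.6% of all genes below and 36.6% above), and Foxa2 and T overlapped. Both comparisons with USg use the same USg libraries and are not independent.

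**Figure D1:**
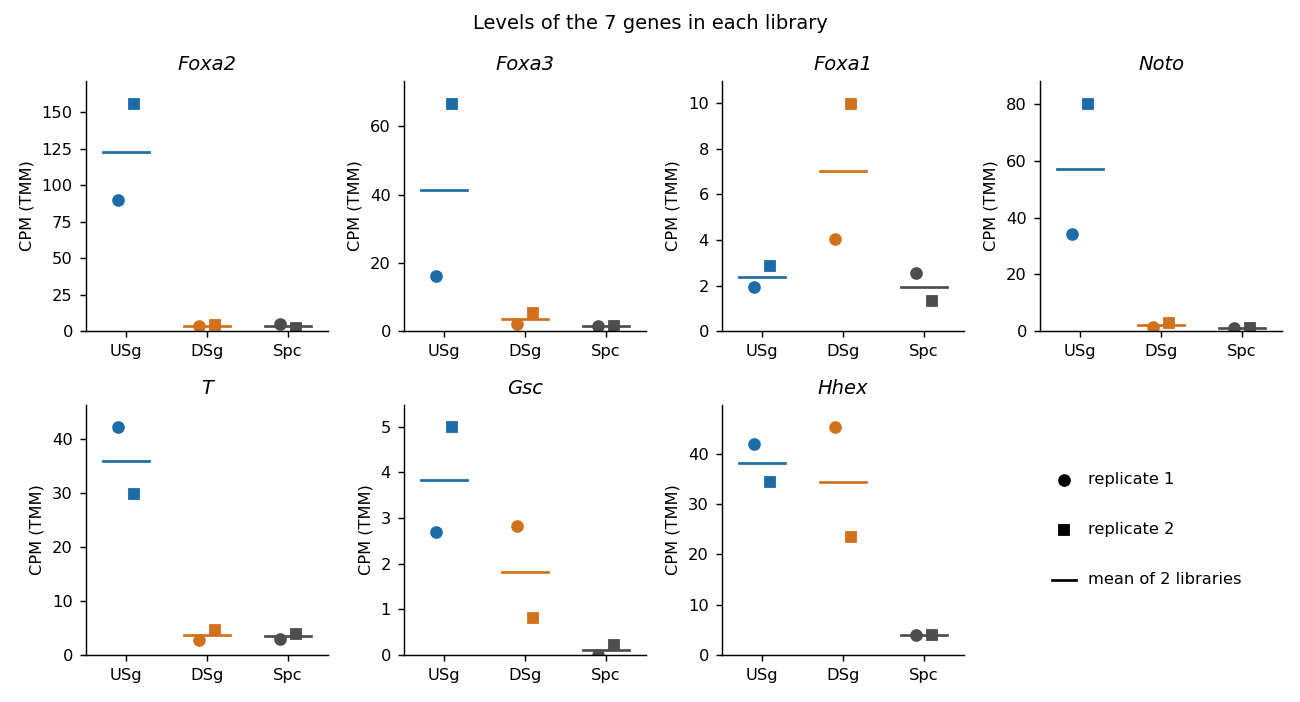
Level of each gene in each library (CPM scaled by TMM factors, linear axes that start at 0 and differ between panels), with circles for replicate 1, squares for replicate 2 and a bar at the mean of 2 libraries. Foxa2, Foxa3, Noto and T were high in USg alone, Hhex in USg and DSg, and Foxa1 was highest in DSg 2.

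Among the Foxa genes, Foxa2 had the highest counts in USg. Its level was 89.9 and 156 CPM in USg, 3.64 and 4.04 CPM in DSg, and 4.93 and 2.18 CPM in Spc, from 233 and 874, 9 and 15, and 25 and 10 counts. Both USg libraries were far above all others, and the DSg and Spc libraries overlapped. The means were 3.84 ± 0.285 CPM in DSg and 123 ± 46.5 CPM in USg (SD, n = 2 each), a log2 fold change of -4.98 ± 0.52 (SE), and 3.55 ± 1.94 CPM in Spc, -5.09 ± 0.51 against USg. Between Spc and DSg the log2 difference was -0.11 ± 0.54. Without Spc 1, Spc against USg was -5.82. Spc against DSg was -0.74 without Spc 1 and changed sign to 0.42 without Spc 2.

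Foxa3 was the least even of the genes high in USg. It had 16.2 and 66.6 CPM in USg, 2.02 and 5.39 CPM in DSg, and 1.58 and 1.52 CPM in Spc, from 42 and 374, 5 and 20, and 8 and 7 counts. Both USg libraries were above all others, but they differed 4.11-fold from each other (USg 2 over USg 1, exact binomial 95% interval 2.98 to 5.8), and only 3.32% of 9937 genes compared in USg were at least as far apart. The log2 fold change was -3.43 ± 0.74 for DSg against USg and -4.73 ± 0.79 for Spc against USg. It moved most with the library left out: to -2.16 without USg 2, -4.24 without USg 1 and -4.36 without DSg 2 for DSg, and to -3.34 without USg 2 and -5.44 without USg 1 for Spc. Spc against DSg was -1.29 ± 0.84, and -0.38 without DSg 2. DSg 2 is the library with the highest odorant receptor sum, and the part of such reads in its Foxa3 level was not tested.

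Foxa1 was highest in DSg, at few counts. Its level was 1.93 and 2.85 CPM in USg, 4.04 and 9.96 CPM in DSg, and 2.56 and 1.31 CPM in Spc, from 5 and 16, 10 and 37, and 13 and 6 counts. Both DSg libraries were above all others, and USg and Spc overlapped. The log2 fold change of DSg over USg was 1.53 ± 0.78, and 0.71 without DSg 2. Spc against DSg was -1.85 ± 0.78, or -1.05 without DSg 2, and Spc against USg was -0.33 ± 0.81, which changed sign to 0.03 without USg 2 and 0.08 without Spc 2. DSg 2, which held 2.47 times the Foxa1 level of DSg 1 (interval 1.20 to 5.56), is the library in which the odorant receptor sum was 10.1 times that of DSg 1. The part of such reads in the Foxa1 level was not tested.

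Of the counts of all 3 Foxa genes, Foxa2 supplied 83.2% in USg 1 and 69.1% in USg 2, but 37.5% and 20.8% in DSg and 54.3% and 43.5% in Spc. Foxa1 supplied 1.79% and 1.27% in USg, 41.7% and 51.4% in DSg and 28.3% and 26.1% in Spc. These are shares of counts, not of molecules, because the lengths of the genes are not corrected for. Only the change of a share across libraries can therefore be read. The shares rest on 24 and 72 Foxa counts in DSg and 46 and 23 in Spc. The exact 95% intervals of the Foxa1 share were 22.1 to 63.4% in DSg 1, 39.3 to 63.35% in DSg 2, 16.0 to 43.5% in Spc 1 and 10.2 to 48.4% in Spc 2. A share also moves with the other Foxa genes: Foxa1 itself was at -0.33 ± 0.81 (log2) in Spc against USg. In bulk RNA, fewer cells with a transcript and less of it per cell cannot be told apart.

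Both notochord genes were low outside USg. Noto, the node homeobox gene, had 34.3 and 80.1 CPM in USg, 1.62 and 2.96 CPM in DSg, and 0.985 and 1.09 CPM in Spc, from 89 and 450, 4 and 11, and 5 and 5 counts. The 3 groups did not overlap, and the order was USg, DSg, Spc, although the DSg and Spc levels rest on 15 and 10 counts. Their ratio, Spc over DSg, was 0.427 with a counting interval of 0.171 to 1.02. DSg 2, at 2.96 CPM, is the library with the highest odorant receptor sum, and the 95th percentile of those genes there was 2.69 CPM. The part of such reads in the order of DSg and Spc was not tested. The log2 fold change was -4.59 ± 0.58 for DSg against USg, which became -5.21 without USg 1 and -3.91 without USg 2. For Spc against USg it was -5.76 ± 0.62, and -4.99 without USg 2.

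T, the brachyury gene, had 42.1 and 29.7 CPM in USg, 2.83 and 4.58 CPM in DSg, and 2.96 and 3.92 CPM in Spc, from 109 and 167, 7 and 17, and 15 and 18 counts. USg was above the other groups in both libraries, and Spc lay within the DSg range. The log2 fold change was -3.23 ± 0.48 for DSg against USg and -3.37 ± 0.47 for Spc against USg, and T stayed within 1.5-fold of these values in each alternative fit listed under processing. USg 1 was the higher USg library for T (USg 2 over USg 1, 0.707, interval 0.552 to 0.908) and the lower one for Foxa2, Foxa3 and Noto. Replicate differences of that size were common, with 56.4% of the 9937 genes at least as far apart.

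The organizer homeobox gene Gsc was near the limit of detection. It had 2.70 and 4.99 CPM in USg, 2.83 and 0.808 CPM in DSg, and 0 and 0.218 CPM in Spc, from 7 and 28, 7 and 3, and 0 and 1 counts. USg and DSg overlapped, and both Spc libraries were below all others. The 0 in Spc 1 allows a level of up to 0.591 CPM (3 counts). The DSg 2 level of 0.808 CPM also rests on 3 counts, so that these counts do not settle the order of Spc 1 and DSg 2. Summed over libraries, the ratio was 0.379 for DSg over USg (counting interval 0.167 to 0.782), 0.0243 for Spc over USg (0.000597 to 0.144) and 0.0640 for Spc over DSg (0.00148 to 0.450). These intervals cover counting error only.

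Hhex, the gene of anterior endoderm and liver, had overlapping levels in both stages of the line. It had 42.1 and 34.4 CPM in USg, 45.3 and 23.4 CPM in DSg, and 3.94 and 3.92 CPM in Spc, from 109 and 193, 112 and 87, and 20 and 18 counts. The USg libraries lay between the DSg libraries, and both Spc libraries were far below. DSg against USg was -0.16 ± 0.40 on the log2 scale, between -0.89 without DSg 1 and 0.25 without DSg 2. Spc against USg was -3.27 ± 0.45, and Spc against DSg was -3.11 ± 0.46, or -2.39 without DSg 1.

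**Figure D2:**
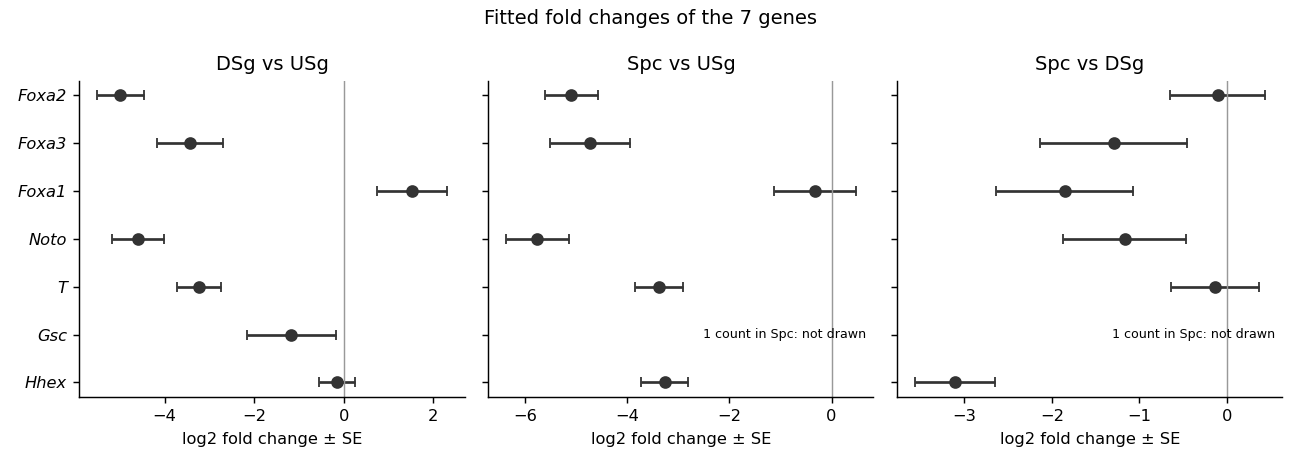
Fitted log2 fold change of each gene (horizontal axis, bars are ± SE from the fit of 6 libraries) in the 3 comparisons, with 0 marked by a grey line and with no value for Gsc where Spc had 1 count. Foxa2 (-4.98) and Noto (-4.59) were lowest in DSg against USg, where Foxa1 (1.53) alone lay to the right of 0, and Foxa2 and T lay near 0 between Spc and DSg.

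The levels of Foxa2, Foxa3 and Noto were all higher in USg 2 than in USg 1, by 1.73, 4.11 and 2.33 times, each with a counting interval above 1. For Foxa2 the interval was 1.5 to 2.01 and 36.3% of genes were at least as far apart. For Noto it was 1.85 to 2.96 and 17.0% of genes were. For Hhex the ratio was 0.817, with an interval that included 1 (0.643 to 1.04), and for the odorant receptor sum it was 0.566. In DSg, Hhex was lower in DSg 2 than in DSg 1 (0.518, interval 0.387 to 0.691). For Foxa2, Foxa3, Noto and T in DSg, with 4 to 20 counts a library, the intervals all included 1.

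**Figure D3:**
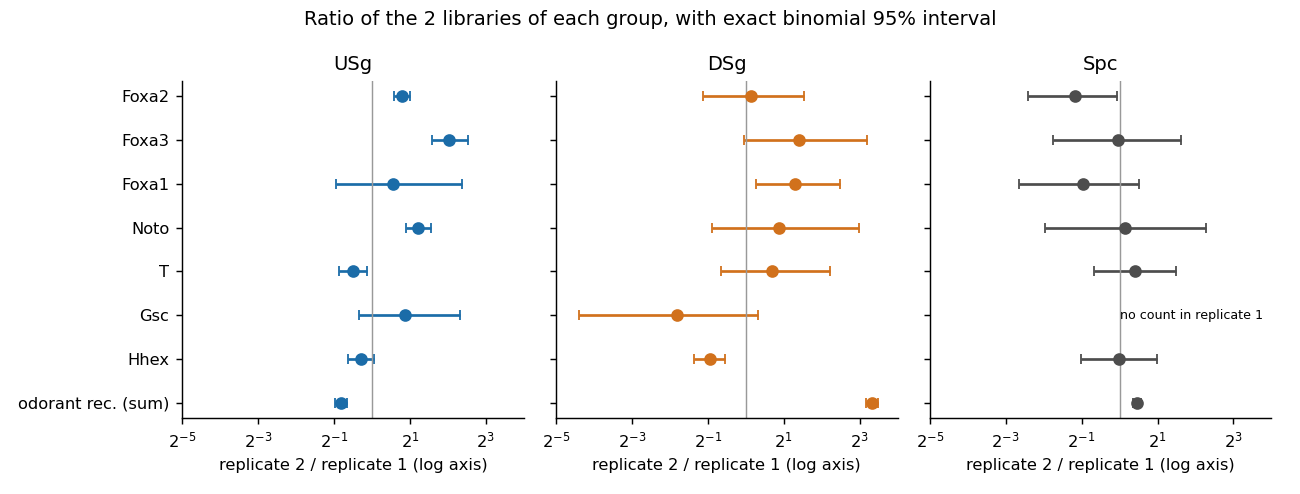
Ratio of replicate 2 to replicate 1 for each gene and for the summed odorant receptor genes (log axis, bars are exact binomial 95% intervals from the counts, grey line at 1), in USg, DSg and Spc. In USg, Foxa2, Foxa3 and Noto lie to the right of 1 and T to the left, and the odorant receptor sum is 10.1 in DSg.

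All 7 genes passed the expression filter, which asks for about 2.53 CPM in at least 2 libraries. Foxa3, Noto and Gsc reached it in both libraries of USg only and Foxa1 in both libraries of DSg only, so that a difference for these 4 was part of passing. Foxa2 reached it in both USg and both DSg libraries, and T and Hhex in all 6.

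Profiles were compared as the root mean square difference of log2(CPM + 1), centred on each gene's mean, over the 6 libraries. Libraries of a group share whatever sets that group apart, so this is a description of likeness and not of a relation. Among the 7 genes, Foxa2 and Noto were nearest (0.42), followed by Foxa3 and Noto (0.56) and by Gsc and Hhex (0.69). The Gsc profile rests on 0 to 28 counts a library. Foxa2 and Foxa3, members of 1 family, were 0.86 apart, and Foxa1 and Foxa2 were farthest apart at 2.50.

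Among 10926 candidate genes, the nearest to Foxa2 were Hmha1 (0.34), the claudin gene Cldn4 (0.40), Noto, the uroplakin gene Upk1b (0.43) and the homeobox gene Hoxc4 (0.48). Hmha1 had 247 and 435 CPM in USg, 16.2 and 25.04 CPM in DSg, and 15.4 and 8.27 CPM in Spc. Hmha1 (0.29), Foxa2, Hoxc4 (0.43), Cldn4 (0.43) and Lbp (0.46), which encodes the lipopolysaccharide-binding protein, were nearest to Noto, so Foxa2 and Noto had 3 neighbours in common besides each other. For Foxa3 they were Tmem54 (0.23), the ephrin gene Efna2 (0.32), Nnat (0.36), Mef2b (0.36) and Dpysl5 (0.37), all higher in USg 2 than in USg 1. Tmem54, for example, had 18.1 and 64.1 CPM in USg, 2.02 and 3.77 CPM in DSg, and 2.17 and 1.74 CPM in Spc.

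The profile of T was nearest to those of the kallikrein gene Klk10 (0.20), Pnpla7 (0.27), Tcf7l1 (0.29), a transcription factor of the Wnt pathway, the P-cadherin gene Cdh3 (0.31) and Coro1a (0.32). Tcf7l1 had 61.4 and 34.2 CPM in USg, 6.06 and 10.5 CPM in DSg, and 4.34 and 5.88 CPM in Spc, with USg 1 above USg 2 as for T. Popdc3 (0.11), E2f6 (0.17), Dclk3 (0.20) and Pmfbp1 (0.22) were 4 of the 5 nearest to Hhex, and Foxa1 was nearest to Eml2 (0.15), Cacna1e (0.15), Pard6a (0.17), Gpr50 (0.19) and Ptp4a3 (0.21). All 5 neighbours of Foxa1 had their highest level in DSg 2. The neighbours depended on the measure: with Pearson's correlation in its place, Foxa2 shared 2 of its 5 neighbours, Foxa1 3, Hhex 2, Foxa3 and T 1 each and Noto 0. With a pseudocount of 0.25, Foxa2 and Noto shared all 5, Foxa1 and T 4, and Foxa3 and Hhex 2. Gsc, under 5 CPM in each group, was not compared with the candidate genes.

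**Figure D4:**
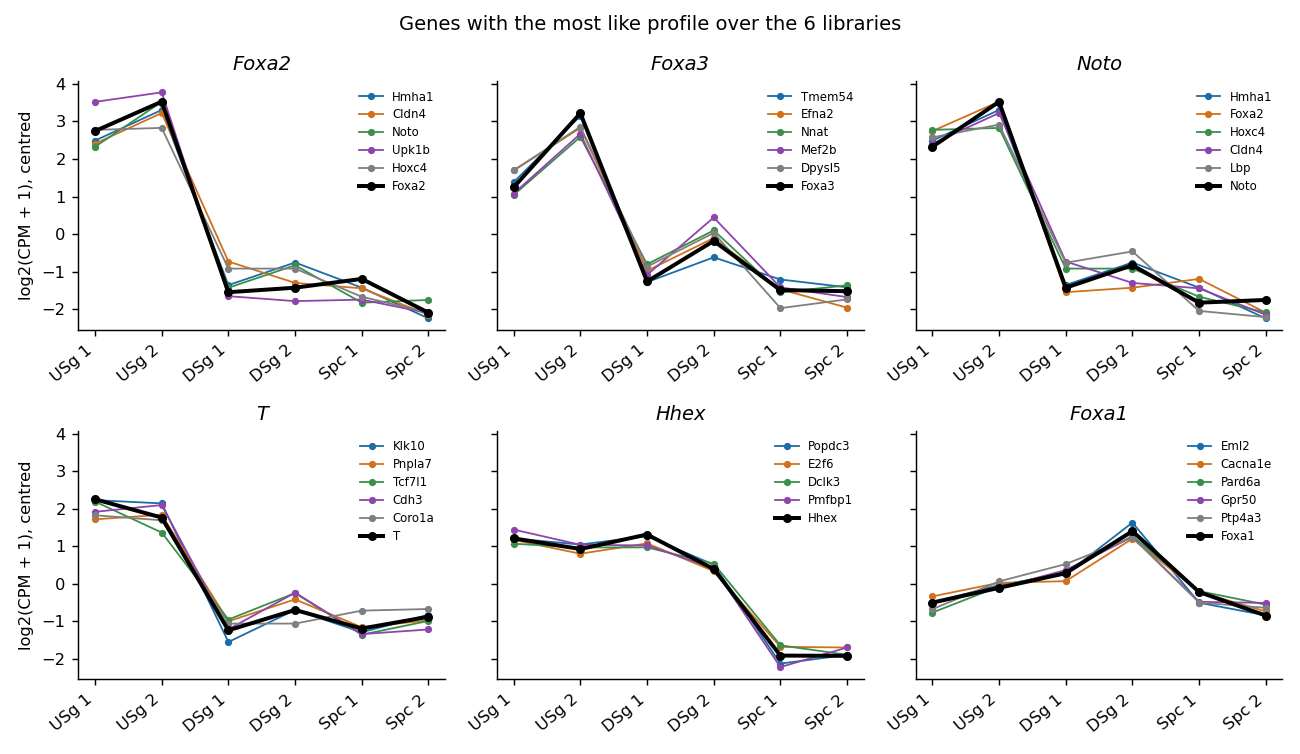
Profiles of log2(CPM + 1), centred on each gene's mean, over the 6 libraries for 6 of the genes (thick black lines) and the 5 genes nearest to each (coloured lines, 4 of the 5 for Hhex). The lines are high in USg alone in the panels of Foxa2, Foxa3, Noto and T, low in Spc alone in that of Hhex, and highest at DSg 2 in that of Foxa1.

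Other genes of the same pathways were read from 7 lists, chosen with earlier results of these data known and tested in edgeR's quasi-likelihood fit of all 12210 genes with Benjamini-Hochberg adjustment. Across all genes, 0.565% were called higher and 1.92% lower in DSg against USg. In Spc, 17.9% were called higher and 16.6% lower against USg, and 14.8% higher and 11.7% lower against DSg (1806 and 1433 genes, with 1486 and 1925 under upper quartile and 1407 and 1681 under total-count scaling). The median log2 fold change of all genes was 0.01, -0.04 and -0.03 in the same order of comparisons.

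**Figure D5:**
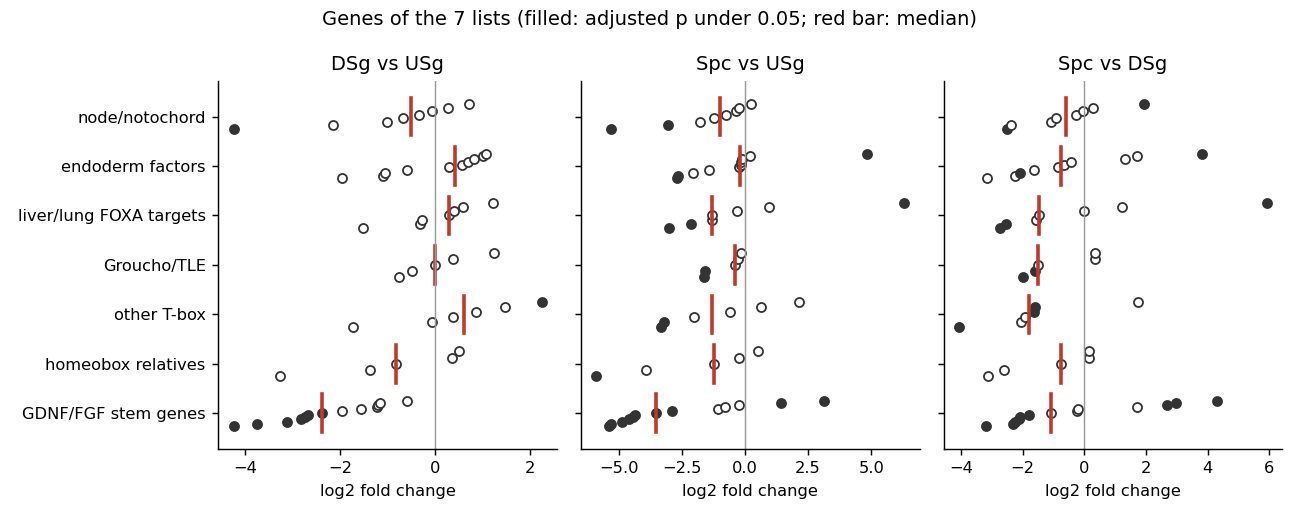
Log2 fold change of every tested gene of the 7 lists in the 3 comparisons (filled circles have an edgeR adjusted p under 0.05, open circles do not, red bars are list medians, and Lhx1 and Cxcr4 stand in 2 lists each). In DSg against USg the filled circles lie in the stem cell list and, with 1 each, in the node and T-box lists.

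Of the 24 node, organizer and notochord genes listed, 19 were in the table and 8 were abundant enough to test. In DSg against USg edgeR called 1 of them lower and none higher (list median -0.50). The gene called was Lhx1, a LIM homeobox gene of the organizer that is also known from GDNF-treated mouse spermatogonia. It had 3.37 ± 2.47 CPM in DSg and 67.6 ± 24.5 CPM in USg (SD, n = 2 each; log2 fold change -4.24 ± 0.56, edgeR adjusted p = 0.0111). The cartilage and notochord factor Sox9 was not called in the fit of 6 libraries (-2.15 ± 0.49, edgeR adjusted p = 0.0591), but it was called lower with DESeq2, with no filter and without USg 1, USg 2, Spc 1 or Spc 2 (edgeR adjusted p = 0.0352, 0.00274, 0.00594 and 0.00786 without those libraries). The BMP antagonist gene Chrd was at -1.01 ± 0.67 and was not called (edgeR adjusted p = 0.444). Shh, Nodal, Fgf8 and Cer1 were among the genes too low to test. In Spc against USg, Lhx1 and Cdx2 were called lower (list median -0.99), Lhx1 by -5.32 ± 0.59 (edgeR adjusted p = 0.000378). In Spc against DSg, Sox9 was higher, at 47.7 ± 3.67 CPM in Spc and 12.6 ± 1.05 CPM in DSg (1.92 ± 0.49, edgeR adjusted p = 0.0201), and the Wnt ligand gene Wnt3 lower (-2.50 ± 0.66, 0.0230, list median -0.59). The edgeR adjusted p of Cdx2 without 1 library was 0.327 (USg 2), 0.263 (Spc 1) or 0.325 (Spc 2). For Sox9 it was 0.0688 without DSg 1 and 0.118 without DSg 2, and for Wnt3 0.0539 without DSg 2, 0.203 without Spc 1 and 0.240 without Spc 2. Lhx1 in DSg against USg was -5.35 without DSg 2.

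None of the 10 tested endoderm factors, of 17 listed, passed the threshold in DSg against USg by edgeR, DESeq2 or limma-voom (list median 0.43, with 1 at an unadjusted p under 0.05). With no filter 1 was called lower, the chemokine receptor gene Cxcr4 (-2.14, edgeR adjusted p = 0.0230). In Spc against USg, Gata4 was called higher, at 68.7 ± 1.45 CPM in Spc and 2.30 ± 0.524 CPM in USg (log2 fold change 4.84 ± 0.62, edgeR adjusted p = 0.000714). Cebpa, a liver and fat factor, was lower (-2.70 ± 0.56, edgeR adjusted p = 0.00656), as was the adhesion gene Epcam (-2.67 ± 0.38, 0.00113), and the list median was -0.19. Against DSg, Gata4 was again higher in Spc (3.82 ± 0.58) and Epcam lower (-2.07 ± 0.37, list median -0.76), with edgeR adjusted p = 0.00221 and 0.00476. Without DSg 2 the Gata4 value was 5.38, and without DSg 1 the Epcam value was -1.36. Gata4 and Sox9 are also Sertoli cell markers. All 8 Sertoli markers were in the table, and they summed to 407 and 461 CPM in USg, 248 and 209 CPM in DSg and 1369 and 1097 CPM in Spc, with none at 0 in Spc. Gata4 and Sox9 are part of that sum, to which Clu supplied 1011 and 787 CPM in Spc. Wt1, Clu, Inha, Cldn11 and Gata4 were higher in both Spc libraries than in all others. Sox9 was highest in USg 1 (82.2 CPM against 50.3 and 45.1 CPM in Spc). Rhox5 was highest in USg 2 (1.78 CPM against 0.985 and 1.31 CPM in Spc), and Amh overlapped between groups. Peritubular and fibroblast markers (6 of 7 in the table) summed to 511 and 242 CPM in USg, 303 and 233 CPM in DSg and 2622 and 2506 CPM in Spc. The part of such cells in these calls was not tested.

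Of 15 textbook FOXA targets, 7 could be tested, and none was called in DSg against USg by edgeR, DESeq2 or limma-voom (list median 0.29, with 0 at an unadjusted p under 0.05). In Spc against USg the transferrin gene Tf was higher, at 585 ± 3.74 CPM in Spc and 7.03 ± 3.40 CPM in USg (6.31 ± 0.43, edgeR adjusted p = 0.000103). Tf is known in the testis as a product of Sertoli cells, whose marker sums are given above. The part of such cells in the Tf level was not tested. Tat, a liver aminotransferase, was called lower in Spc (-3.0 ± 0.75, edgeR adjusted p = 0.0152), as was Abcc8 (-2.15 ± 0.59, 0.0220), which encodes a subunit of the ATP-sensitive potassium channel, and the list median was -1.29. Against DSg, Tf was again higher in Spc (5.93 ± 0.42) and Abcc8 (-2.75 ± 0.60) and the apolipoprotein gene Apob (-2.53 ± 0.68) lower (list median -1.48), with edgeR adjusted p = 0.000146, 0.0107 and 0.0255. The edgeR adjusted p of Tat was 0.116, 0.167 and 0.0937 without USg 2, Spc 1 and Spc 2. For Abcc8 against USg it was 0.107 without USg 2 (log2 fold change -1.22) and 0.0713 without Spc 1, and against DSg 0.0771 without DSg 2. For Apob it was 0.0638, 0.114 and 0.159 without DSg 1, DSg 2 and Spc 1 (-1.84), whereas without Spc 2 Apob was at -3.49. Tf against USg was 6.99 without USg 2.

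The Groucho/TLE proteins are co-repressors that bind Foxa, Gsc and Hhex proteins. All 5 in the table, of 6 listed, could be tested, and none was called in DSg against USg by edgeR, DESeq2 or limma-voom (list median -0.01, with 1 at an unadjusted p under 0.05). Tle1 had 132 ± 21.0 CPM in DSg and 133 ± 2.43 CPM in USg, a difference of -0.01 ± 0.30 on the log2 scale. In Spc, Tle1 and Tle3 were called lower against USg (-1.60 ± 0.31 and -1.61 ± 0.39, edgeR adjusted p = 0.00455 and 0.0125) and against DSg (-1.59 ± 0.31 and -1.99 ± 0.39, 0.00643 and 0.00677). The list medians were -0.40 and -1.51. Against USg, the edgeR adjusted p of Tle1 was 0.132 without Spc 1 and 0.0655 without Spc 2, and that of Tle3 was 0.0575 without USg 2 (log2 fold change -1.0), 0.0601 without Spc 1 and 0.108 without Spc 2. Against DSg, it was 0.0526, 0.199 and 0.0911 for Tle1 without DSg 1, Spc 1 and Spc 2, and 0.0542 for Tle3 without Spc 2.

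Of the other T-box genes, 6 of 16 were tested, and in DSg against USg edgeR called 1 higher and none lower (list median 0.62). Tbx3, a T-box repressor known from embryonic stem cells, had 81.3 ± 13.6 CPM in DSg and 16.9 ± 4.80 CPM in USg (2.25 ± 0.40, edgeR adjusted p = 0.0298), the opposite direction to T. In a fit of the 4 USg and DSg libraries alone its call was lost (edgeR adjusted p = 0.0608). Tbx4, not called in the fit of 6 libraries, was called lower with DESeq2 (adjusted p = 0.0429), with no filter, and in edgeR without USg 1 (-2.17, adjusted p = 0.0107) or Spc 1 (-1.84, 0.0407). In Spc against USg, Tbx1 (-3.20 ± 0.58, edgeR adjusted p = 0.00331) and Tbx4 (-3.34 ± 0.51, 0.00159) were lower (list median -1.29). In Spc against DSg, Tbx1 (-4.06 ± 0.58), Tbx3 (-1.63 ± 0.39) and Tbx4 (-1.61 ± 0.51) were lower (edgeR adjusted p = 0.00167, 0.0157 and 0.0459, list median -1.78). Without Spc 1, Tbx1 was at -4.01 against USg and -4.77 against DSg. The Tbx3 call against DSg was lost without DSg 1, Spc 1 or Spc 2 (edgeR adjusted p = 0.105, 0.0548 and 0.254). That of Tbx4 was lost without DSg 1, DSg 2, Spc 1 or Spc 2 (0.0510, 0.268 with a log2 fold change of -0.93, 0.209 and 0.223), and also with total-count scaling (edgeR adjusted p = 0.0501) and limma-voom (0.0976).

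Of 15 homeobox relatives of Noto, Gsc and Hhex, 5 were tested, and none was called in the fit of 6 libraries by edgeR or limma-voom in DSg against USg (list median -0.82, with 1 at an unadjusted p under 0.05). There Otx1 was called lower by DESeq2 (adjusted p = 0.0137), with no filter, and by edgeR without USg 1, Spc 1 or Spc 2 (adjusted p = 0.00136, 0.00127 and 0.00270). In Spc against DSg none was called in the fit of 6 libraries by edgeR, DESeq2 or limma-voom (list median -0.75, with 0 at an unadjusted p under 0.05), and Otx1 was called lower with no filter (-2.44, edgeR adjusted p = 0.0462) and without USg 1 (-2.53, 0.0294). Gsc2 did not pass the filter in the main fit of 6 libraries. It was called lower in Spc against DSg without ribosomal RNA genes (-3.59, edgeR adjusted p = 0.0377). Its counts were 4 and 6 in USg, 6 and 12 in DSg and 1 and 1 in Spc. Otx1, a head and brain factor, was lower in Spc against USg, at 0.306 ± 0.125 CPM in Spc and 19.7 ± 20.8 CPM in USg (-5.89 ± 1.09, edgeR adjusted p = 0.00383, list median -1.22), and its USg libraries were uneven. That call was lost with limma-voom and without USg 2 (-3.87, edgeR adjusted p = 0.0953), and the value was -6.71 without USg 1.

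In the list of stem spermatogonia genes under GDNF or FGF, edgeR called 7 of 13 tested genes lower in DSg against USg and none higher. The list median was -2.38, with 11 at an unadjusted p under 0.05, and every tested gene had a negative log2 fold change. Besides Lhx1, the largest falls were those of Egr3 (-3.74 ± 0.58, edgeR adjusted p = 0.0191), the GDNF co-receptor gene Gfra1 (-3.12 ± 0.36, 0.00697) and Bcl6b (-2.83 ± 0.46, 0.0229). Gfra1 had 21.6 ± 6.57 CPM in DSg and 186 ± 4.76 CPM in USg. Egr3 was at -4.39 without USg 1, -2.97 without USg 2 and -4.42 without DSg 2, and its call was lost with limma-voom (adjusted p = 0.0555), as was that of Mycn with total-count scaling (edgeR adjusted p = 0.0589). Etv5, which mouse cultures place upstream of T, had 96.9 ± 9.83 CPM in DSg and 503 ± 169 CPM in USg (-2.38 ± 0.34, edgeR adjusted p = 0.0140).

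In Spc against USg, 8 of these 13 genes were called lower and 2 higher (list median -3.54). Beside Lhx1, the largest differences among those called lower were those of Gfra1 (-5.37 ± 0.41), the GDNF receptor gene Ret (-4.86 ± 0.34) and Bcl6b (-4.61 ± 0.51), with edgeR adjusted p = 0.000119, 0.000105 and 0.000367. Egr2 (3.15 ± 0.62, edgeR adjusted p = 0.00508) and Id4 (1.42 ± 0.33, 0.0111) were called higher. Egr2 was at 3.85 without USg 2, and the Id4 call was lost without Spc 1 (0.163) or Spc 2 (0.0687). Id4, an inhibitor of helix-loop-helix factors, had 48.2 ± 1.16 CPM in USg, 16.5 ± 4.67 CPM in DSg and 129 ± 15.7 CPM in Spc. In Spc against DSg, 6 of the 13 were called lower, led by Pou3f1 (-3.18 ± 0.46), and Egr2, Id4 and Egr3 were called higher (4.31 ± 0.68, 2.97 ± 0.36 and 2.67 ± 0.57, list median -1.08). The edgeR adjusted p was 0.00181 for Pou3f1, 0.00269 for Egr2, 0.000782 for Id4 and 0.0101 for Egr3. Sertoli, peritubular and macrophage marker sums, given above, were also highest in Spc, and the part of such cells in these calls was not tested. Without DSg 2, Egr2 was at 6.42 and Egr3 at 3.34, and without DSg 1 the Egr3 call was lost (0.0658).

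With DSg 1 or DSg 2 omitted, so that 1 DSg library remained, edgeR called no gene of any list in DSg against USg. At an unadjusted p under 0.05 there were 27 list genes of 78 tested without DSg 1 and 19 of 61 without DSg 2. The edgeR adjusted p of the 8 genes called was then 0.0762 for Gfra1 to 0.122 for Tbx3 without DSg 1, and 0.127 for Lhx1 to 0.215 for Mycn without DSg 2.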

How the data were processed

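RNA was sequenced from 6 rat libraries, 2 each of USg, DSg and Spc. The authors deposited 1 table of raw counts by gene symbol, without normalization, as whole numbers with unequal totals show. The submitters' processing notes list, with no role for each, HOMER, featureCounts, Picard 1.127, edgeR 3.2.4, Subread 1.4.6, STAR 2.5.3a and Bowtie2 2.2.3, and builds rn5 and rn6. Which aligner, build, annotation and strandedness produced the counts was not given in the sources used here, so overlapping, antisense or near-identical genes may share or lose reads. Precision is limited by 2657291 to 5697165 counts per library.

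Counts were filtered with filterByExpr (minimum count 10, minimum total 15), which left 12210 of 16764 symbols, scaled by TMM factors and fitted in 1 quasi-likelihood model of 6 libraries (edgeR 4.0.16, limma 3.58.1, R 4.3.3) with 3 residual degrees of freedom. P-values are two-sided and Benjamini-Hochberg adjusted over all 12210 genes, with a threshold of 0.05. The SE of a log2 fold change is its size divided by the root of its F statistic. Ratios of counts have exact binomial intervals at 95%, which cover counting error only.

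The 7 genes and all lists were chosen with earlier results of these data known. Text names the 7 genes, up to 4 called genes per list and comparison with the largest change (5 CPM or more in the higher group's mean), up to 2 called against the rest, and the 5 nearest profiles per gene (genes with at least 5 CPM in a group), of which 1 for Hhex is not reported here. Cdx2, Gsc2, in DSg against USg Sox9, Chrd, Tle1, Tbx4, Otx1, Cxcr4, Id4 and Etv5, and the extremes Tbx3 and Mycn of a range, were named after their values were seen. Alternatives were other scalings, no filter, DESeq2 1.42.0, limma-voom, fits of 4 libraries, a replicate block and each library left out. Leaving out USg 1 and DSg 1 together, and a crossed pairing, were added after the data were seen. Promoter sequences are from RefSeq (GRCr8), for which 6 of the 7 symbols matched its gene table and 5 had a window. T was not matched.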

Additional observations from a re-analysis of the deposited data

How the results depend on the processing

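All member values rest on 2 libraries a group, and levels outside USg on 4 to 25 counts a library for Foxa2, Foxa3, Noto and T. Those of Foxa1 in USg and Spc rest on 5 to 16, and those of Gsc in all groups on 0 to 28. A fit that leaves 1 library in a group assumes that it varies like the others.

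For DSg against USg, 69 genes were called higher and 234 lower. The counts were 189 and 855 with no filter, 239 and 542 with DESeq2, and 10 and 80 with only the 4 libraries compared. With total-count scaling 141 were lower. Leaving out 1 library gave 0 to 317 higher and 0 to 1184 lower, with 0 of either by edgeR without DSg 1 or without DSg 2, where 3439 and 1823 genes were at an unadjusted p under 0.05. List genes called were 1 higher (0 with 4 libraries, 0 to 1 without 1 library) and 7 lower (13 with no filter, 11 with DESeq2, 0 to 12 without 1 library). For Spc against USg, 2185 were higher (1306 to 2288 without 1 library) and 2029 lower (922 to 2274). For Spc against DSg, 1806 were higher (1168 to 2547 without 1 library) and 1433 lower (466 to 1742, and 2152 with 4 libraries), and list genes called lower were 15 (8 to 17). Of the endoderm factors in Spc against DSg, 1 was higher (3 with no filter) and 1 lower (2 with RLE factors, no filter, DESeq2 or 4 libraries and 3 with upper quartile scaling). The causes were not tested.

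Same-numbered replicates did not deviate together in every pair of groups (correlation of deviations 0.25 for USg and DSg, -0.27 for USg and Spc and 0.01 for DSg and Spc over 12210 genes), and no label pairs them. With the replicate number as a block, DSg against USg had 168 genes higher and 436 lower and 11 list genes lower. Sox9, Tbx4, Otx1 and Id4 were then called lower (edgeR adjusted p = 0.0168, 0.0382, 0.0468 and 0.0250), which took the node list to 2 lower and the T-box and homeobox lists to 1 each, and the call of Cdx2 in Spc against USg was lost (0.0540). In a crossed pairing of USg and Spc, chosen after seeing the data, 2842 genes were higher and 2571 lower.

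Leaving out USg 1 and DSg 1 together, also chosen after seeing the data, gave 2992 genes higher and 3335 lower in DSg against USg, with 12 and 21 list genes. It gave 4081 and 4165 in Spc against USg, with 9 and 30 list genes, and 4115 and 4177 in Spc against DSg, with 41 list genes lower. Gsc was then at -2.73 for DSg against USg and -2.57 for Spc against DSg (log2 fold change). That fit had 1 residual degree of freedom.

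Leaving out 1 library gave log2 fold changes of -2.46 to -0.49 for Gsc and -0.89 to 0.25 for Hhex in DSg against USg, and of -6.96 to -3.99 for Gsc in Spc against USg. Gsc did not pass the filter without USg 2, so its ranges cover the other 5 libraries. For Spc against DSg they were -1.60 to -0.38 for Foxa3, -1.31 to -0.63 for Noto, -5.80 to -2.49 for Gsc and -3.52 to -2.39 for Hhex. The values of -6.96 and -5.80 are without Spc 2, where Gsc had 0 counts in Spc, so they depend on the prior count and are no bound. Signs changed for Hhex in DSg against USg, Foxa1 in Spc against USg, and Foxa2 and T in Spc against DSg (T to 0.27 without DSg 2 and 0.14 without Spc 1). Without ribosomal RNA genes, and with the other scalings and limma-voom, the 7 genes otherwise stayed within the spread of their replicates.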

Other observations

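The lists held 38 genes that did not pass the expression filter. Of these, 32 had their highest level in DSg 2, 4 in USg 1 and 2 in DSg 1. Summed over the 38 genes, the level was 35.9 and 33.5 CPM in USg, 25.9 and 108 CPM in DSg, and 24.8 and 26.6 CPM in Spc. The Nodal antagonist gene Cer1, for example, had 0 and 0 counts in USg, 0 and 12 in DSg, and 0 and 2 in Spc. The TGF-beta family ligand gene Nodal had 2 and 5 counts in USg, 2 and 19 in DSg, and 2 and 2 in Spc. DSg 2 is also the library with the highest sum of odorant receptor genes, at 1367 CPM against 136 CPM in DSg 1. Both genes were chosen after their values were seen.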
